A study of Mus musculus with 13 samples.

Results

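The genes described are 10 ligands and receptors of the vascular endothelial growth factor (VEGF) and angiopoietin systems: the ligands Vegfa, Vegfb, Vegfc, Angpt1 and Angpt2 and the receptors Kdr, Flt1, Flt4, Tek and Nrp1. They were chosen by name, and each had exactly 1 probe set annotated to its symbol alone, so all 10 were measured among the 18818 genes of the array. Epididymal white fat of male mice on the C57Bl/6J background was profiled on 13 Affymetrix arrays. The mice were wild type or carried the B6.129S6-Cd1d1/Cd1d2tm1spb/J deletion (CD1d-/-), which removes the molecule that presents glycolipids to natural killer T cells. All of them, controls included, were 6 weeks old when a high-fat diet began and ate it for 4 days. On days 0 and 2 they received intraperitoneal α-galactosylceramide (αGalCer, 100 ng per g body weight), a glycolipid that activates natural killer T cells through CD1d, or its vehicle, pyridine. Wild type fat gave 3 arrays after vehicle and 4 after αGalCer, CD1d-/- fat gave 3 arrays after each, and the labels give an age of 6.5 weeks throughout. There was no group on another diet and no group without injection. The labels name the arrays of a group as replicates without saying whether each came from its own mouse, so p-values measure only the spread between these samples, which may be in part technical.

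VEGF-A is the main secreted signal for the growth and survival of blood vessel endothelium, and in fat it is made by adipocytes among other cells. It acts mostly through VEGFR2, the product of Kdr, while VEGFR1, the product of Flt1, binds it more tightly and acts largely as a decoy. VEGF-B binds VEGFR1, VEGF-C acts on VEGFR3 (Flt4) of lymphatic endothelium, and neuropilin 1 (Nrp1) is a coreceptor for VEGF-A and for class 3 semaphorins. The angiopoietins bind Tie2, the product of Tek: angiopoietin 1, made by cells around the vessel, activates it and steadies the vessel wall, and angiopoietin 2, made by endothelium, opposes it in many settings.

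Transcripts of 6 of the 10 genes fell in wild type fat after αGalCer, in arrays where 22% of all 18818 genes were called lower and 19.8% higher. In CD1d-/- fat none of the 10 was called, where 0% of all genes were. Kdr fell by 2.57 on the log2 scale, the largest fall of the 10, to a level 5.95-fold lower than after vehicle. Vegfb, Flt4, Tek, Vegfc and Vegfa followed, with levels between 3.46-fold and 2.27-fold lower. Flt1, Nrp1, Angpt1 and Angpt2 did not pass the test.

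The upstream sequences of the 4 receptor tyrosine kinases are shown because 3 of these genes fell and 1, Flt1, was not called. Each is the 250 bases before the gene's start in RefSeq's promoter table, on the gene's own strand and in the build GRCm38.p6. Capitals mark the letters GGAA or TTCC, the core bound by ETS factors on either strand, which many endothelial genes carry. Kdr lies at chr5:75978456-75978705 (minus strand), Flt1 at chr5:147726012-147726261 (minus strand), Flt4 at chr11:49609429-49609678 (plus strand) and Tek at chr4:94739039-94739288 (plus strand).
Kdr: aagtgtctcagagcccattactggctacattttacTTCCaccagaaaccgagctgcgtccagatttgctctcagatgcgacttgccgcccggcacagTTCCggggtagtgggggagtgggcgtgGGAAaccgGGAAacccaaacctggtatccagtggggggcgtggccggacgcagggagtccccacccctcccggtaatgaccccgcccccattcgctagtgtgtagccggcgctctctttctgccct
Flt1: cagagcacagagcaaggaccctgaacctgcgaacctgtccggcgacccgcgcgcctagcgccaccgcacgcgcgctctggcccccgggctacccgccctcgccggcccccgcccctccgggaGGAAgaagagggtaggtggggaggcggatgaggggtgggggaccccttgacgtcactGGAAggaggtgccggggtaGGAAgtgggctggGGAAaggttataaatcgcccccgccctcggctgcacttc
Flt4: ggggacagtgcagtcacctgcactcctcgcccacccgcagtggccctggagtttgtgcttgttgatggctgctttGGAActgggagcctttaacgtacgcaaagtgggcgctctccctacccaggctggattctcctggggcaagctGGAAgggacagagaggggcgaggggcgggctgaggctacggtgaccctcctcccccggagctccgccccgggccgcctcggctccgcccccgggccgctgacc
Tek: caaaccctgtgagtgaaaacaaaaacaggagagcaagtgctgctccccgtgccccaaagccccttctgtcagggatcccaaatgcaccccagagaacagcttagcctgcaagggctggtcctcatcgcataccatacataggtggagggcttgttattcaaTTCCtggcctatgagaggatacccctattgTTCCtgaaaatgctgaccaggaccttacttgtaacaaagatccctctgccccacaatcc

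The Kdr and Flt1 windows each held 4 such cores, and the Flt4 and Tek windows each held 2. Of 32851 promoter windows of the same length in the table, 93.4% held at least 1 core and the median window held 3. GC boxes (GGGCGG on either strand) numbered 2 in Kdr, 3 in Flt1, 3 in Flt4 and 0 in Tek, against 32.7% of all windows with at least 1. The core of the hypoxia response element (ACGTG on either strand), which 16.6% of windows held, had no match in these 4. In the other members with an entry it matched once, in 1 of the 2 start sites listed for Vegfa. That window, chr17:46025164-46025413 on the minus strand, lies downstream of the gene's other start site. The window of the upstream start, chr17:46032378-46032627, had no match. These are letter matches in short windows and not sites of binding. The 8 members found in the table were Vegfa, Vegfb, Vegfc, Kdr, Flt1, Flt4, Nrp1 and Tek. Base composition ranged from 51.2% G or C in Tek to 70.4% in Flt1 among the 4.

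The arrays matched their genotype labels: the probe set of Cd1d1 read 9.08 to 10.86 (log2) in the 7 wild type arrays and 2.64 to 4.03 in the 6 CD1d-/- arrays. Arrays of 1 group correlated at 0.976 to 0.994 over all probe sets. The labelled fat carried adipocyte transcripts throughout: 15 adipocyte genes averaged 12.06 to 12.26 in all arrays but those of wild type after αGalCer, which read 10.44 to 11.11. Traces of neighbouring tissue varied. The mean of 15 skeletal muscle genes was 8.50 and 6.80 in CD1d-/- vehicle replicates 1 and 2 and 8.78 in CD1d-/- αGalCer replicate 3, against 5.00 to 5.85 elsewhere. The mean of 12 genes of ductal epithelium was 5.09 to 7.88 in vehicle arrays of both genotypes and 4.60 to 4.91 in αGalCer arrays, and 12 epididymis genes averaged 4.64 in wild type vehicle replicate 3 alone. Left out alone, the array with epididymis genes changed the call of none of the 10 genes in any comparison. Leaving out the 3 arrays with muscle left 1 CD1d-/- vehicle array. Leaving out the 3 vehicle arrays with the highest ductal means left 1 wild type vehicle array. Neither fit can show the spread in that group. Over all alternatives, these fits included, the wild type change of Kdr stayed between -2.65 and -2.47 and that of Vegfa between -1.28 and -1.09.

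Kdr, the main signalling receptor for VEGF-A, read 9.75, 9.50 and 9.39 (log2) in the 3 wild type vehicle arrays and 7.09, 6.79, 6.99 and 7.03 in the 4 wild type αGalCer arrays. The CD1d-/- arrays read 9.37, 9.34 and 9.31 after vehicle and 9.48, 9.46 and 9.48 after αGalCer. All 4 wild type αGalCer arrays therefore lay more than 2 log2 units below every other array. In wild type Kdr fell by 2.57 ± 0.10 (SE; limma adjusted p = 4.85e-09 over all genes).

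Flt1, the decoy-like receptor, did not pass the test. It read 9.52, 9.49 and 9.43 in wild type after vehicle and 9.80, 9.21, 9.0 and 9.22 after αGalCer. Of the αGalCer arrays, 3 lay below all vehicle arrays and replicate 1 lay above them. The difference was -0.17 ± 0.15 (SE), with a 95% interval from -0.50 to 0.16 (limma adjusted p = 0.417). Without replicate 1 the change was -0.33 with an adjusted p of 0.0178. No other alternative called it, and leaving out 1 array at a time gave changes from -0.33 to -0.07. The value covers the gene as a whole, so the soluble and membrane-bound forms of VEGFR1 were not told apart.

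Flt4, the VEGF-C receptor of lymphatic endothelium, read 7.70, 7.47 and 7.66 in wild type after vehicle. After αGalCer it read 6.29, 5.48, 5.77 and 6.04. The groups did not overlap, and Flt4 fell by 1.71 ± 0.20 (SE; limma adjusted p = 1.19e-05). Its CD1d-/- values were 7.83, 7.14 and 7.33 after vehicle and 7.15, 7.29 and 6.93 after αGalCer, which overlapped.

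Tek, which encodes the angiopoietin receptor Tie2, read 8.68, 9.12 and 9.03 in wild type after vehicle and 7.22, 7.15, 7.70 and 7.37 after αGalCer. Every αGalCer array was below every vehicle array, and Tek fell by 1.58 ± 0.16 (SE; limma adjusted p = 4.63e-06). The coreceptor Nrp1 read 10.21, 10.43 and 10.20 after vehicle and 9.83, 10.28, 10.36 and 10.24 after αGalCer. Those groups overlapped, and the difference of -0.10 had a 95% interval from -0.43 to 0.22 (limma adjusted p = 0.649).

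Among the ligands, Vegfb had the largest fall. It read 10.41, 10.44 and 10.26 in wild type after vehicle and 8.75, 8.29, 8.76 and 8.52 after αGalCer, without overlap, and fell by 1.79 ± 0.11 (SE; limma adjusted p = 1.01e-07). VEGF-B is a ligand of VEGFR1 and is abundant in tissues that burn or store fatty acids. Vegfa read 10.39, 10.33 and 10.23 after vehicle and 9.42, 8.88, 8.85 and 9.39 after αGalCer, and fell by 1.18 ± 0.14 (SE; limma adjusted p = 1.55e-05). Its 4 αGalCer arrays formed a close pair near 9.4 and another near 8.9, and both pairs lay below all vehicle arrays. Vegfc, the lymphatic growth factor, read 6.22, 6.56 and 6.29 after vehicle and 4.98, 4.81, 4.84 and 5.20 after αGalCer, and fell by 1.40 ± 0.12 (SE; limma adjusted p = 1.16e-06). Its αGalCer mean of 4.96 is dim for these arrays, and RMA compresses dim probe sets, so the change may be understated.

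Neither angiopoietin passed the test in wild type. Angpt1 read 5.82, 6.50 and 6.51 in wild type after vehicle and 5.83, 5.80, 6.01 and 6.36 after αGalCer. The groups overlapped, and the difference of -0.28 ± 0.23 (SE) had a 95% interval from -0.78 to 0.23 (limma adjusted p = 0.389). Angpt2, the context-dependent antagonist of Tie2, read 7.15, 7.41 and 7.12 after vehicle and 7.97, 7.68, 7.06 and 7.69 after αGalCer. Replicates 1, 2 and 4 lay above all vehicle arrays and replicate 3 below them. Its difference was 0.37 ± 0.17 (SE; unadjusted p = 0.0479, limma adjusted p = 0.101). Without replicate 3 the difference was 0.55 with an adjusted p of 0.00203. No other alternative called it, and leaving out 1 array at a time gave differences from 0.25 to 0.55.

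**Figure D1:**
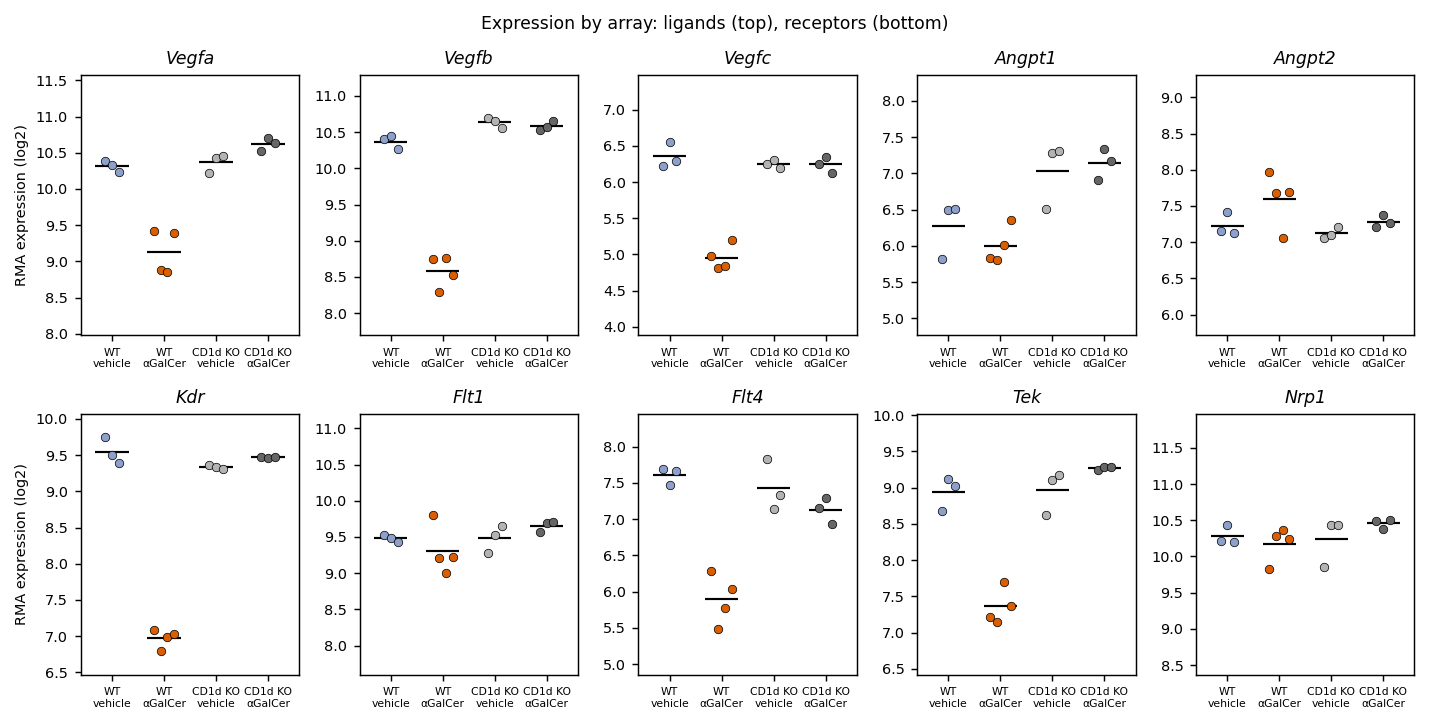
RMA expression (log2) of the 10 genes in each of the 13 arrays, by group, with ligands in the upper row and receptors in the lower row; points are arrays, lines are group means, and each panel spans the same 3.6 log2 units around its own centre. The 4 wild type αGalCer arrays sit below all other arrays for Vegfa, Vegfb, Vegfc, Kdr, Flt4 and Tek, and overlap the wild type vehicle arrays for Angpt1, Angpt2, Flt1 and Nrp1.

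Across all 18818 genes, 22% were called lower and 19.8% higher in wild type after αGalCer, and 25% had αGalCer arrays that all lay below the vehicle arrays. Among the 10 members 6 were called lower, 0 were called higher, and the same 6 had groups without overlap. The members' median change was -1.29, beside -0.02 for all genes. The share of members called lower was thus above the share of all genes, in arrays where calls were common. In bulk fat, fewer cells of a type and less RNA per cell cannot be told apart.

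In CD1d-/- fat the response to αGalCer was not detected for any member. Changes ran from -0.31 in Flt4 to 0.30 in Tek, and limma adjusted p ranged from 0.766 to 0.989. Over all genes 0% were called (0 of 18818), while 1281 genes and none of the 10 members had an unadjusted p under 0.05. Weighting the arrays by quality in limma called 322 genes here and again none of the 10. In that fit CD1d-/- vehicle replicate 2 had a weight of 5 and replicate 1 a weight of 0.2. Vegfa, Kdr, Tek and Angpt2 had all 3 αGalCer arrays above all 3 vehicle arrays, 4 of 10 members against 7.79% of all genes, with changes of 0.25, 0.13, 0.30 and 0.16. For Kdr the 95% interval of the CD1d-/- change was -0.09 to 0.36, and for Vegfb it was -0.30 to 0.19.

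The difference between the genotypes' responses was itself tested. It was called lower for 14.3% of all genes and for 6 of the 10 members, the same 6 that fell in wild type. The difference, wild type minus CD1d-/-, was -2.71 ± 0.14 (SE) for Kdr with a limma adjusted p of 3.12e-07. For Tek it was -1.89 ± 0.24 (adjusted p = 8.31e-05), and for Vegfb -1.74 ± 0.16 (adjusted p = 1.12e-05). Vegfa, Flt4 and Vegfc gave -1.43, -1.41 and -1.39, with adjusted p of 0.000196, 0.00238 and 8.99e-05. The 4 others were not called: Flt1 at -0.34 with an interval from -0.83 to 0.14, Nrp1 at -0.32, Angpt1 at -0.38 and Angpt2 at 0.21. Without wild type αGalCer replicate 1 the Flt1 difference was -0.51 with an adjusted p of 0.0178.

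**Figure D2:**
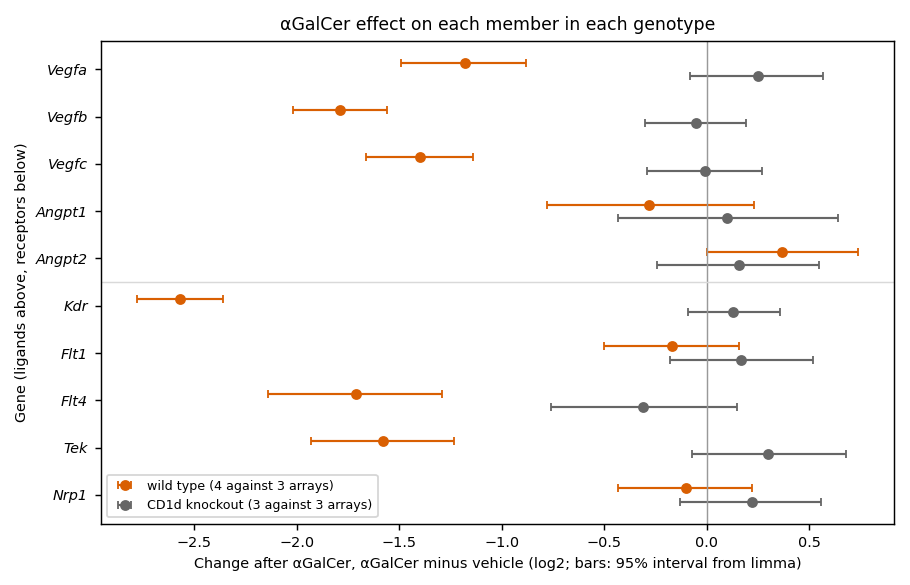
Change after αGalCer (αGalCer minus vehicle, log2) of the 10 genes in wild type and CD1d-/- fat, with points for limma estimates and bars for 95% intervals. In wild type the intervals of Kdr, Vegfb, Flt4, Tek, Vegfc and Vegfa lie below 0, with estimates from -2.57 for Kdr to -1.18 for Vegfa. The wild type interval of Angpt2 (0.00 to 0.74 as rounded) lies just above 0, without a call after adjustment. Those of Flt1, Nrp1 and Angpt1 include 0, as does every CD1d-/- interval.

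The genotypes were also compared after each injection, in comparisons that share their arrays with those above. After vehicle 0.112% of all genes differed and none of the 10 members was called. Angpt1 came nearest, at 7.03 ± 0.46 (SD, n = 3) in CD1d-/- and 6.28 ± 0.40 (SD, n = 3) in wild type fat. This difference of 0.75 ± 0.25 (SE) had an unadjusted p of 0.00955 and a limma adjusted p of 0.517, and 1 array of each genotype stood at the same level, 6.51. Weighting the arrays by quality gave 0.85 and an adjusted p of 0.0397. The weights were 5 for CD1d-/- vehicle replicate 2 and 0.2 for replicate 1, the CD1d-/- array at 6.51. The weighted CD1d-/- vehicle group thus rested mostly on 1 array. Vegfb was higher by 0.27 and Kdr lower by 0.21 in CD1d-/- without overlap, 2 of 10 members against 11.2% of all genes, and neither passed the test (adjusted p = 0.71 and 0.774).

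After αGalCer 21.9% of all genes were called higher in CD1d-/- than in wild type fat, and 7 of the 10 members were. Kdr differed by 2.50 ± 0.10 (SE; limma adjusted p = 5.99e-09), Vegfb by 2.01 and Tek by 1.91. Vegfa, Vegfc and Flt4 differed by 1.48, 1.29 and 1.23. The seventh was Angpt1, with 6.91, 7.33 and 7.17 in CD1d-/- and at most 6.36 in wild type, a difference of 1.13 ± 0.23 (SE; limma adjusted p = 0.00132). Groups without overlap were found in 28% of all genes and in 8 of 10 members, the eighth being Nrp1, whose difference of 0.28 was not called (adjusted p = 0.158). Flt1 differed by 0.35 (adjusted p = 0.0889) and was called without wild type αGalCer replicate 1 (0.51, adjusted p = 0.00129). Angpt2 was lower by a log2 difference of -0.32 (adjusted p = 0.163) and was called without replicate 3 of that group (-0.50, adjusted p = 0.00399).

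Of 7 further ligands, receptors and coreceptors of the VEGF and angiopoietin systems, 2 fell in wild type and 1 rose. Ptprb, the endothelial phosphatase that acts on Tie2, fell by 2.05 ± 0.13 (SE; limma adjusted p = 1.26e-07). Tie1, the partner receptor of Tie2, fell by 1.52 ± 0.10 (adjusted p = 2.27e-07). Nrp2, the neuropilin of veins and lymphatics, rose by 0.44 (adjusted p = 0.000205). The ligands Pgf, Vegfd and Angpt4 and the semaphorin receptor Plxnd1 had changes of -0.24, -0.32, -0.62 and -0.16 and were not called. Of 11 class 3 semaphorins and class A plexins, the other partners of neuropilins, 7 fell and 1 rose (median -0.53). Plxna2 fell by 1.77, Sema3d by 1.55 and Sema3c by 1.35, and Plxna1 rose by 0.37.

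Genes downstream of VEGF receptors, Notch and Tie2 in endothelium mostly fell, 15 of 24 with 1 rising (median -0.92). The largest falls were in Aplnr, the apelin receptor (-2.10), in Dll4, the Notch ligand that VEGF induces in tip cells (-2.01), and in its target Hey1 (-1.92). Nos3, endothelial nitric oxide synthase, fell by 1.59, and Foxo1 fell by 1.60. Not called were 8 of the 24, among them Apln (0.06), Rcan1 (-0.07) and Nr4a1 (0.23). Egr3 rose by 0.77. A list of 31 endothelial genes, described below, had a median of -1.36, so a fall was not particular to these downstream genes. The lists overlap in part, and Plvap is in both. Among 15 endothelial transcription factors 8 fell and 2 rose, with Sox7 at -2.18, Sox17 at -1.43, Gata2 at -1.37 and Erg at -1.31. Hhex and Lmo2, which blood cells also express, rose by 0.99 and 0.92. In CD1d-/- fat no gene of any of the 18 lists was called after αGalCer.

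Secreted factors outside the VEGF and angiopoietin systems moved both ways. Of 10 measured inhibitors of angiogenesis 3 rose and 4 fell. The interferon-induced chemokines Cxcl10 and Cxcl9 rose by 4.13 and 2.26 and Thbs1 by 1.02, while Thbs2, Timp3 and Serpinf1 fell by 1.07, 1.07 and 0.91. Of 17 other angiogenic factors 4 rose and 5 fell, with Il1b (2.70), Hbegf (2.11) and Tgfb1 (1.21) highest and Fgf1 (-1.35), Fgf10 (-1.25) and Fgf2 (-1.17) lowest.

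Genes of hypoxia signalling, which controls Vegfa, and other regulators of Vegfa were measured in the same arrays. Of 24 genes for HIF subunits, their hydroxylases and targets of hypoxia signalling, 8 rose and 8 fell (median 0.04). Many of these are targets, so the count does not describe regulators of Vegfa alone. Among the targets, Slc2a1, Pgk1 and Car9 rose by 1.71, 1.22 and 1.16, and Ddit4, Pfkfb3 and Bnip3 fell by 1.65, 1.58 and 1.37. Car9 was dim, with means of 4.07 after vehicle and 5.23 after αGalCer in wild type. Epas1, which encodes HIF-2α, fell by 1.05, and Hif1a was at 0.37 without passing the test (adjusted p = 0.0728). Of 8 other regulators, Ppargc1a, a coactivator that induces Vegfa apart from hypoxia, fell by 1.98 and Pparg by 1.03, while Stat3 and Zfp36 rose by 0.51 and 0.53.

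Markers of several cell types moved with these results in wild type fat. Of 31 endothelial genes, a list without any member, 26 fell and none rose (median -1.36), among them Cdh5 (-1.30) and Pecam1 (-0.69). Their mean per array was 9.10 to 9.26 after vehicle and 7.85 to 8.24 after αGalCer in wild type, against 9.10 to 9.37 in CD1d-/- arrays. All 15 pericyte and smooth muscle genes fell (median -1.43), and their array mean went from 8.92 to 9.01 after vehicle to 7.17 to 7.67 after αGalCer. All 15 measured adipocyte genes fell (median -1.02), with array means of 10.44 to 11.11 after αGalCer. Of 15 measured macrophage genes 13 rose and none fell (median 1.82), with array means of 7.85 to 8.60 after vehicle and 9.96 to 10.18 after αGalCer.

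Fibroblast genes fell in 10 of 13 cases with 1 rising, and mesothelial genes in 3 of 9. Lymphatic genes split: 7 of 10 measured fell, led by Mmrn1 (-2.72), Reln (-1.88) and Prox1 (-1.72), the master regulator of lymphatic identity. Lyve1 and Pdpn, which macrophages and stromal cells also express, rose by 1.31 and 1.07. Of 12 ductal genes 9 fell in wild type (median -2.12), and the same list had a median of -1.82 in CD1d-/- fat without a call. The part of any of these cell types in the members' changes was not tested.

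**Figure D3:**
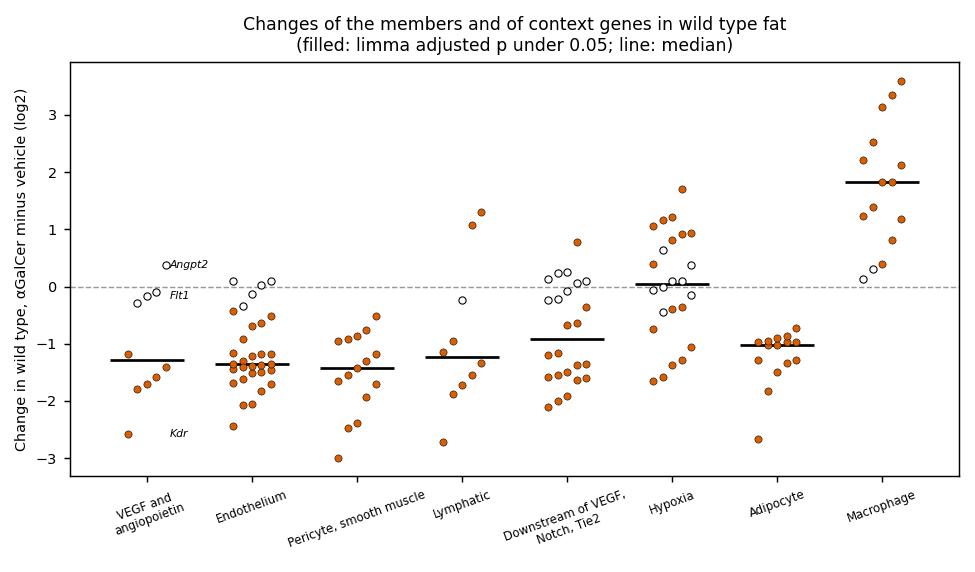
Change in wild type fat (αGalCer minus vehicle, log2) of the 10 members and of genes in 7 lists; each point is a gene, filled where limma's adjusted p is under 0.05, and lines are list medians. The members' median (-1.29) lies near those of lymphatic (-1.24), endothelial (-1.36) and mural (-1.43) genes, and that of adipocyte genes is -1.02. Kdr lies below every endothelial gene and Angpt2 above all of them, while macrophage genes lie above 0.

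Set against the 31 endothelial genes, the receptors spread widely. The wild type change of Kdr was below those of all 31, while 4 of the 31 changes were below that of Flt4 and 7 below that of Tek. The changes of Flt1 (-0.17) and Nrp1 (-0.10), neither of them called, were above those of 27 and 28 of the 31, called or not. When the mean of the 31 genes in the same array was subtracted, and the wild type vehicle mean set to 0, Kdr was at -1.42 ± 0.05 (SD, n = 4) in wild type αGalCer arrays and at -0.28 to -0.08 in CD1d-/- arrays. Flt1 was at 0.98 ± 0.26 (SD, n = 4) and Nrp1 at 1.05 ± 0.37 (SD, n = 4), both above every array of the other groups. The subtracted mean itself fell in wild type αGalCer arrays, so any gene that kept its level rises in this measure. The separation of Flt1 and Nrp1 follows from that fall. Tek was at -0.43 ± 0.29 (SD, n = 4). Flt4 was at -0.56 ± 0.19 (SD, n = 4), a position that CD1d-/- αGalCer arrays shared, at -0.60 ± 0.13 (SD, n = 3).

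The ligands differed in the same measure. Vegfa kept its distance from the endothelial mean, at -0.03 ± 0.20 (SD, n = 4) in wild type αGalCer arrays, and Vegfc was at -0.25 ± 0.16, close to its -0.23 ± 0.07 (SD, n = 3) in CD1d-/- αGalCer arrays. Adipocyte genes also fell by a similar amount (median -1.02, beside -1.18 for Vegfa), so the position of Vegfa was not particular to endothelial genes. Vegfb was at -0.64 ± 0.15 (SD, n = 4), below all other arrays. Angpt2 was at 1.52 ± 0.35 (SD, n = 4), with its lowest array at 1.02 and no array of another group above 0.12. Angpt1 was at 0.87 ± 0.27 (SD, n = 4), and CD1d-/- arrays were at similar values without any endothelial fall, 0.79 after vehicle and 0.74 after αGalCer. Part of the rise of Angpt2 in this measure likewise comes from the fall of the subtracted mean. These positions were not tested, and a list mean stands for the list and not for a count of cells.

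**Figure D4:**
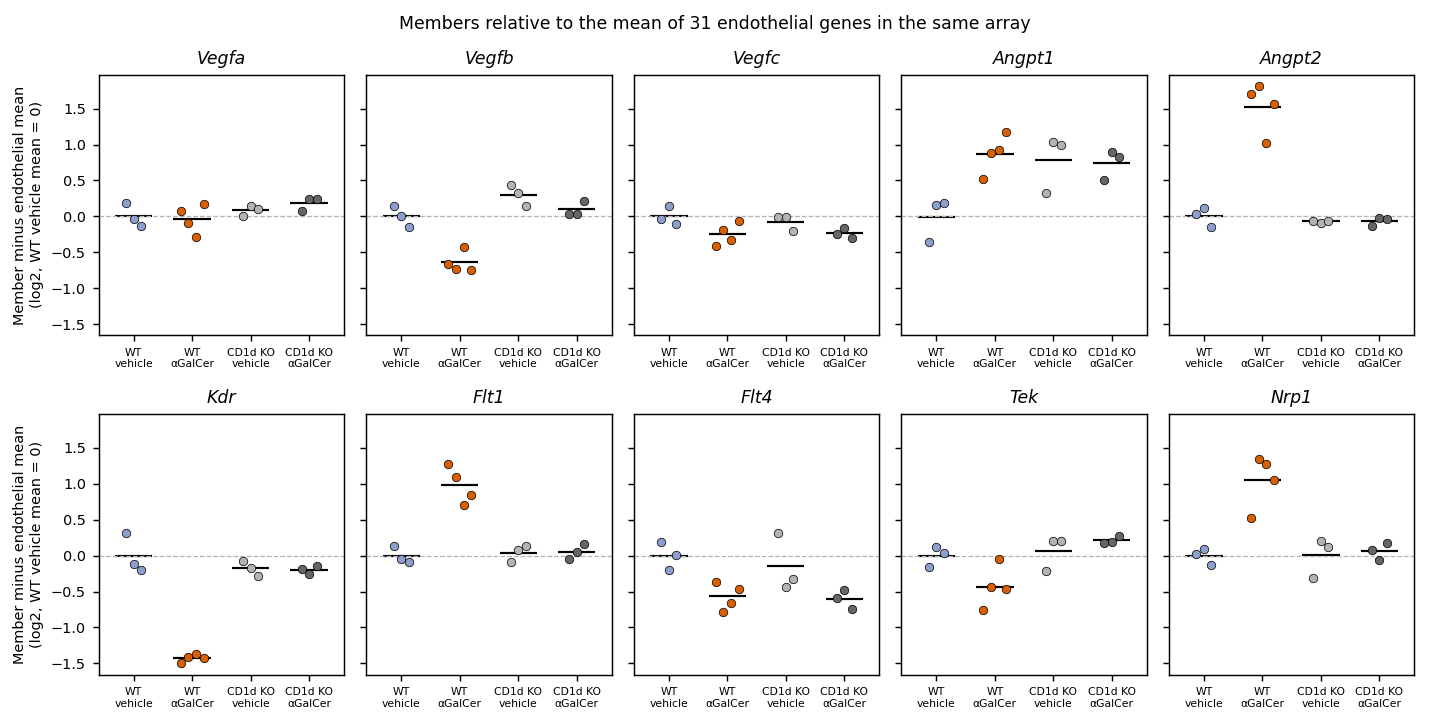
Each member's log2 value minus the mean of 31 endothelial genes in the same array, with the wild type vehicle mean set to 0; points are arrays, lines are group means, and all panels share 1 axis. In wild type αGalCer arrays Kdr is at -1.49 to -1.37, Vegfa stays near 0 (-0.29 to 0.17), and Flt1, Nrp1 and Angpt2 lie above all other arrays. The subtracted mean itself fell in these arrays, so a gene with an unchanged level lies above 0 there.

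Within-array differences of receptor and ligand pairs restate the same unequal changes. With the wild type vehicle mean set to 0, Flt1 minus Kdr was 2.77, 2.50, 2.07 and 2.26 in the 4 wild type αGalCer arrays and -0.17 to 0.41 in the other 9. Angpt2 minus Tek was 2.46, 2.24, 1.07 and 2.03, against -0.32 to 0.19 elsewhere. Neither pair overlapped between these arrays and the others. Each sets a gene without a call against 1 that fell, so the separation follows from the changes above and is no further test. Angpt2 minus Angpt1 was 1.19, 0.93, 0.10 and 0.38 in wild type αGalCer arrays, which overlapped the wild type vehicle arrays (-0.35 to 0.39), and was -1.13 to -0.39 in CD1d-/- arrays. Vegfa minus Vegfb was 0.73, 0.64, 0.14 and 0.93 in wild type αGalCer arrays, which overlapped the others (up to 0.20).

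The genes whose levels followed each member most closely were ranked by Pearson's r over the 13 arrays among 17989 genes, as a description. For the members that fell in wild type, the low wild type αGalCer arrays shape these correlations. Members without a call also varied within groups. Nrp1, for example, had group means of 10.18 to 10.46 and an SD of 0.33 in CD1d-/- vehicle arrays. Kdr ran with Mical3 (0.994) and Sptan1 (0.991), Tek with Jam2 (0.995) and Plscr4 (0.993), and Flt4 with Sardh and the smooth muscle myosin Myh11 (both 0.988). Vegfa ran with Gpr4 (0.993) and Jag1 (0.991), Vegfb with Pxmp4 (0.997) and Reep6 (0.996), and Vegfc with Pi15 (0.986) and Ttc23 (0.984). The members without a call in wild type had looser partners: Nrp1 with Zfp317 (0.967) and Ppp3ca (0.965), Angpt1 with Igf1 (0.955) and Sorcs1 (0.953), Angpt2 with Rnd1 (0.943) and Il6 (0.922), and Flt1 with Cct8l1 (0.898) and P3h2 (0.885). Of these, Rnd1 and Il6 rose in wild type by 0.92 and 1.43 (limma adjusted p = 0.00704 and 0.00437).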

How the data were processed

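RNA was measured on 13 Affymetrix arrays. The authors deposited log2 expression values per probe set, made with RMA per the submitters' processing notes; RMA corrects background, quantile normalises and summarises probes. The version, chip description and build used were not given in the sources used here; no detection calls were used. The values carry no counts, so the number of arrays limits the precision.

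Names came from the platform's annotation, updated through the RefSeq gene table of GRCm38.p6, which served only for names. Of 35556 probe sets 21218 had 1 symbol, 1881 several and 12457 none; the probe set with the highest mean stood for a gene. A single fit in limma (3.58.1; R 4.3.3) held all 13 arrays, with 4 group means, 9 residual degrees of freedom and eBayes with an intensity trend. P-values are two-sided and Benjamini-Hochberg adjusted over 18818 genes, and a gene was called, or said to rise or fall, at an adjusted p under 0.05. Each ± after a change is the SE. The members and the 18 gene lists (254 of 266 genes measured) were chosen with earlier results of these data known, so no test was run over a list. All members were named; from each list up to 3 called genes with the largest rise and fall in wild type, all further VEGF, angiopoietin and semaphorin genes as needed, and the 2 genes most correlated with each member. Cdh5, Pecam1, Nos3, Foxo1, Erg, Hif1a, Epas1, Apln, Rcan1 and Nr4a1 were added after their values were seen. Alternatives covered normalisation, probe set choice, variance model, array weights, dim genes, a fold threshold, the replicate number and leaving out arrays; leaving out 3 vehicle arrays with ductal transcripts was added after seeing the data.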

Additional observations from a re-analysis of the deposited data

Results flagged for a closer look

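The effect of αGalCer differed between wild type and CD1d-/- fat by limma's interaction term for 6 of the 10 genes, with 14.3% of all genes called in this direction. The difference on the log2 scale, wild type minus CD1d-/-, was -2.71 for Kdr, -1.89 for Tek, -1.74 for Vegfb, -1.43 for Vegfa, -1.41 for Flt4 and -1.39 for Vegfc. In each of these the 4 wild type αGalCer arrays lay below all other arrays. Dixon's test was run only on the 4 wild type αGalCer arrays, where no member passed it, and groups of 3 were not tested. Nearest to its limit were replicate 1 for Nrp1, with a gap of 0.769 of the range, and for Flt1, with 0.721, and leaving out that array changed the call of Flt1 in wild type.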

How the results depend on the processing

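No member reversed direction among the called results, and none of the calls of Kdr, Vegfb, Flt4, Tek and Vegfa in wild type was lost under any alternative. Vegfc could not be called where dim genes were left out, since its mean fell under the minimum of 6. Members called in wild type numbered 5 to 7 over the alternatives (6 as reported), in the difference of effects 5 to 7, and after αGalCer between genotypes 6 to 8; leaving out 1 array each gave 6 to 7, 6 to 7 and 7 to 8. In CD1d-/- fat the count was 0 throughout. The comparison of genotypes after vehicle went from 0 to 1 member with array weights, through Angpt1, where most weight in CD1d-/- lay on 1 array. Flt1 after αGalCer between genotypes was also called after renewed quantile normalisation (0.41, adjusted p = 0.0425) and with array weights (0.42, adjusted p = 0.00373). The replicate number as a block, a paired analysis, gave 6, 0, 6, 0 and 7 members and changed no call; of 18 same-number pairs of arrays 5 correlated above 0.1, so the numbers were not taken as pairs.

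Over all genes, array weights called 322 genes in CD1d-/- fat (0 as reported) and 169 between genotypes after vehicle (21 as reported). Both counts lean on CD1d-/- vehicle replicate 2, which had a weight of 5. Between genotypes after vehicle, leaving out 1 array gave 11 to 35, and fitting only the groups compared gave 4. Leaving out the arrays with muscle, or those with ductal transcripts, left 1 vehicle array in a genotype, so no count is given for those fits. Requiring a 1.5-fold change left 5019 of 7881 genes in wild type and 4888 of 7739 after αGalCer between genotypes. Fitting only the groups compared does not apply to the difference of effects, which uses all 4.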
